A study of Mus musculus with 6 samples.

Results

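Transcripts of 9 transcription factors that set the layer identity of cortical projection neurons were examined in the fetal mouse cortex after maternal bisphenol A (BPA, a plastic monomer with weak estrogenic activity). They were taken by gene symbol from a table of read counts with 45583 rows, and all 9 symbols were present once. Tbr1, Fezf2, Bcl11b, Sox5 and Tle4 mark and specify deep layer neurons, and Cux1, Cux2, Pou3f2 and Pou3f3 mark upper layer neurons. The study had 6 libraries, each from the dissected cortex of 1 male fetus at GD15.5 (GD, gestational day), labelled strain Cyp19-EGFP and genotype WT, SRY +. Dams received BPA at 50 µg/kg (3 fetuses) or peanut oil vehicle (3 fetuses) from GD10.5 to GD14.5. In this strain, which according to the study's methods was backcrossed to FVBN, a bacterial artificial chromosome adds a further copy of Cyp19a1 (aromatase) that carries EGFP. Whether the 6 fetuses carried this copy is not clear from the labels. BPA was injected under the skin each day in ethanol and peanut oil, and the study describes its vehicle as ethanol in peanut oil. The labels name fetuses and not litters, so the P values below measure the spread between these fetuses, some of which may have shared a dam.

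The cerebral cortex is built from the inside out. Neurons of the deep layers are born first and send axons out of the cortex to the thalamus, brainstem and spinal cord, and neurons of the upper layers are born later and mostly connect cortical areas with each other. A small network of transcription factors that repress one another decides between these fates, and at mid-gestation it is active in newborn neurons, and partly in their progenitors. Whether BPA altered this network is of interest because the study examined the dendrites of layer V neurons in exposed male mice.

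Library totals ran from 3444601 counts in BPA replicate 3 to 7180835 counts in vehicle replicate 2, and each of the 9 factors was covered by at least 563 counts in every library. Counting error alone therefore contributed at most a 4.21% coefficient of variation to any value of the 9 factors, and more to genes with fewer counts. Vehicle replicate 2 and BPA replicate 2 stood apart in choroid plexus transcripts: Ttr, which the choroid plexus secretes, was at 195 and 308 CPM (read counts scaled to a common library total) there and between 2.21 and 11.9 CPM in the other 4 libraries. There was 1 such library in each group. All 8 markers of the dorsal pallium, from which the cortex arises, were detected in every library. The most abundant, the neuronal factor Neurod6, averaged 738 CPM in vehicle (SD 106) and 791 CPM in BPA (SD 66.2).

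The factors differed widely in abundance. Levels of different genes were compared as CPM per kb of exonic length, over all 6 libraries. Tbr1, a T-box factor that specifies corticothalamic neurons, was the highest at 110 ± 11.1 CPM per kb (SD, n = 6). It was followed by Bcl11b (also called Ctip2), a zinc finger factor of subcerebral projection neurons, at 83.3 ± 7.22, and by the POU factor Pou3f3 (Brn1) at 80.0 ± 4.81 CPM per kb. The ranges of Bcl11b and Pou3f3 overlapped, although Bcl11b was the higher in 6 of 6 libraries. Fezf2, the zinc finger selector of corticospinal fate, was at 57.0 ± 6.63 CPM per kb, and Pou3f2 (Brn2) at 41.3 ± 3.72. Fezf2 exceeded Pou3f2 in 5 of 6 libraries, with overlapping ranges. Tle4, a Groucho corepressor that marks corticothalamic neurons, was at 26.4 ± 1.71 CPM per kb. Sox5, an SRY-box factor that times the birth of deep layer classes, was at 19.7 ± 2.34 and the cut homeobox factor Cux2 at 19.4 ± 2.16 CPM per kb, which were not separable (Sox5 higher in 4 of 6 libraries). Its paralog Cux1 was the lowest at 14.3 ± 0.627 CPM per kb. The exonic length of Cux1, 20024 bases, joins all of its annotated transcripts, among them those of the Golgi protein CASP made from the same gene, so its level per length is understated relative to the single-exon genes Pou3f2 and Pou3f3. The other lengths were joined in the same way, among them Sox5 (14376 bases), Cux2 (10082 bases) and Tle4 (5702 bases), so the order depends on this definition. In CPM, Sox5 averaged 274 in vehicle and 292 in BPA, above Tle4 at 150 and 151.

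**Figure D1:**
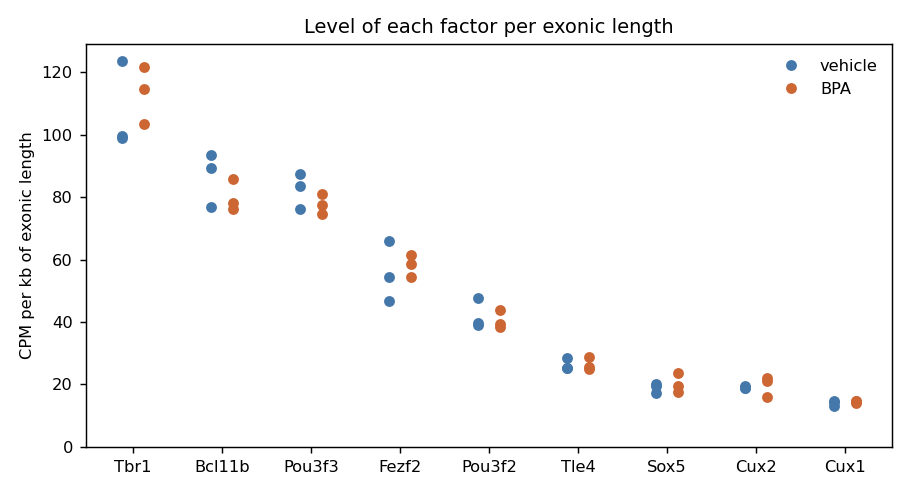
Level of each factor in each of the 6 libraries, as CPM per kb of exonic length on a linear axis from 0, ordered by the mean; blue points are vehicle libraries and orange points BPA libraries. The vehicle and BPA points of each factor overlap, while the means span from 110 CPM per kb for Tbr1 to 14.3 CPM per kb for Cux1.

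Since Pou3f2 and Pou3f3, and likewise Cux1 and Cux2, are close paralogs, it was asked whether reads of 50 bases could have been assigned to the wrong member of a pair. The most similar stretches of 150 bases in the coding sequences (GENCODE M21 transcripts, GRCm38) are printed here because they are where such a mix-up would be most likely. Bases that differ within a pair are in capitals, and each sequence runs 5′ to 3′ along the coding strand.

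Pou3f2: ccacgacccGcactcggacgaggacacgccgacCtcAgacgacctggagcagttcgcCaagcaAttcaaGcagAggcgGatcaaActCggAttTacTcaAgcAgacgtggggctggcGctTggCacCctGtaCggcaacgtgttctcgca

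Pou3f3: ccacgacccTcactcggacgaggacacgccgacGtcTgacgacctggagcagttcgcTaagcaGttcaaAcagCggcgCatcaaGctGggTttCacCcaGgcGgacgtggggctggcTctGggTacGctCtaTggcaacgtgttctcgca

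Cux1: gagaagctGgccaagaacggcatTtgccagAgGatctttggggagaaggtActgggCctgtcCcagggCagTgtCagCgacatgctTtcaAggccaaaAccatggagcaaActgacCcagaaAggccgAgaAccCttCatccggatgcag

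Cux2: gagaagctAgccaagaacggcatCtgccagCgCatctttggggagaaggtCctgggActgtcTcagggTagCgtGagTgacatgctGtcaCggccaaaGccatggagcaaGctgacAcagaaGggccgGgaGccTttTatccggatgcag

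The Pou3f2 stretch is at chr4:22487212-22487361 (minus strand) and the Pou3f3 stretch at chr1:42698057-42698206 (plus strand), each inside the only exon of its gene. The Cux1 stretch spans 2 exons between chr5:136305513-136307806 and the Cux2 stretch 2 exons between chr5:121868515-121869055, both on the minus strand. Of the 150 bases, 129 (86.0%) matched in each pair, but the longest identical run was 23 bases in the POU pair and 17 bases in the cut homeobox pair. No word of 50 bases was shared between any of the 9 factors. With other genes, from 0% (Fezf2) to 8.98% (Sox5) of a factor's 50-base words were shared. For Sox5 nearly all of these, 1284 words, lay in the antisense gene Sox5os1, which was at 0 counts in every library. The antisense gene Gm16599 shared 346 words with Cux1 and was also at 0 in every library. Other annotated genes overlap Sox5 (Sox5it, Sox5os2, Sox5os3, Sox5os4, Sox5os5, Gm44068), Cux1 (A430110C17Rik, Gm38082, Mir721), Cux2 (Gm15637, Gm3970) and Pou3f3 (AC122898.1) without sharing exonic bases, and those with a row in the table had at most 2 counts in any library.

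No difference between BPA and vehicle was detected for any of the 9 factors. In the fit over all 13741 genes tested with edgeR's quasi-likelihood test, 0 of the 9 passed an adjusted P of 0.1 (background 0% of all genes tested), and 0 of the 9 reached an unadjusted P of 0.05 (background 2.2%). The libraries of the groups overlapped for each of the 9, where they did not for 6.75% of all genes. Each had an adjusted P of 1 after Benjamini-Hochberg adjustment. DESeq2, limma-voom and edgeR's likelihood ratio test also called 0 of the 9, at either threshold. The median log2 fold change was 0.06 over the 5 deep layer factors and -0.01 over the 4 upper layer factors, beside 0.0016 over all genes tested. Without vehicle replicate 2 and BPA replicate 2, the libraries with choroid plexus transcripts, the median of the deep layer factors was 0.188. The log2 fold changes were then 0.19 for Tbr1, 0.21 for Fezf2, -0.05 for Bcl11b, 0.22 for Sox5 and 0.03 for Tle4, and again 0 of the 9 reached an unadjusted P of 0.05.

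**Figure D2:**
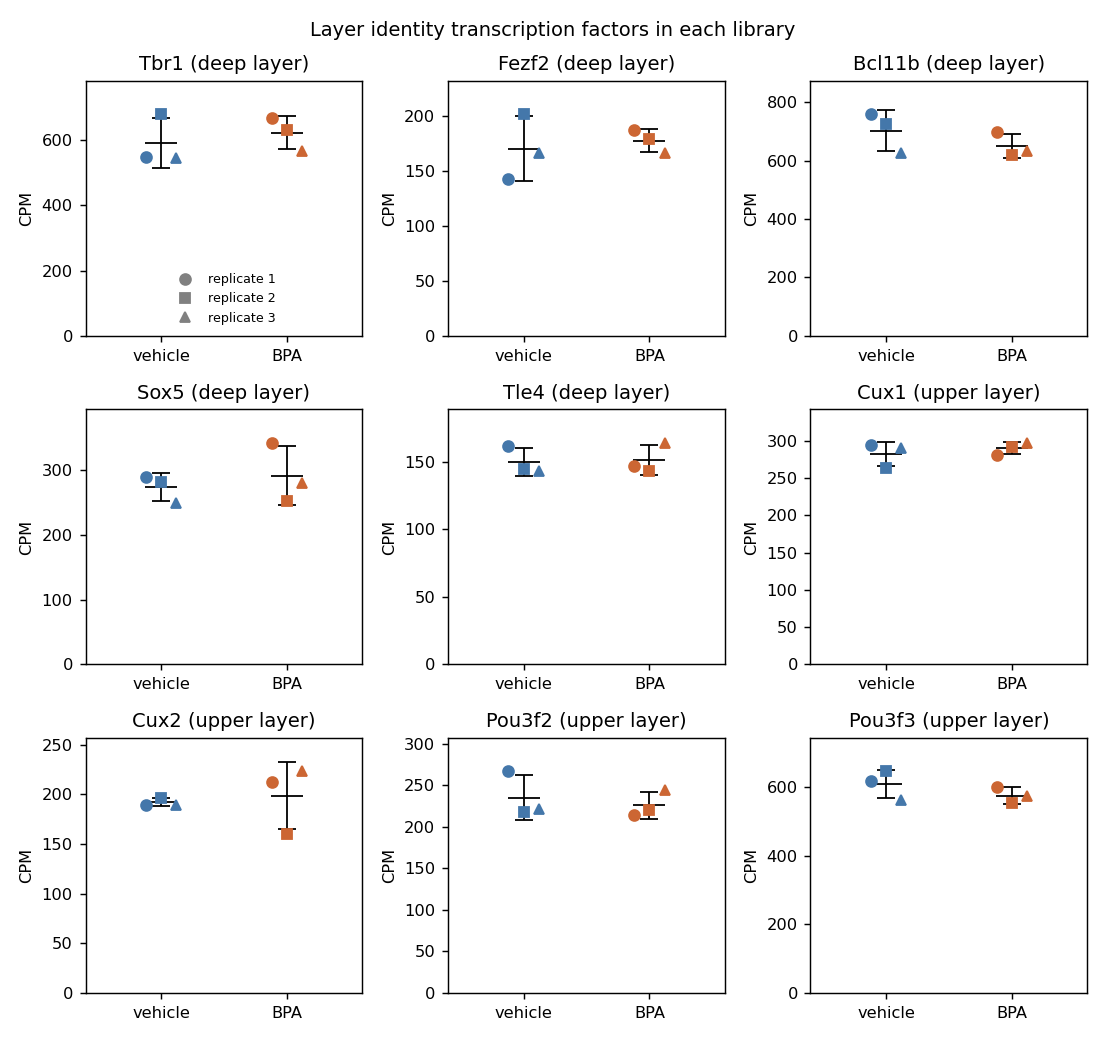
Level of each of the 9 factors in each library, in CPM on linear axes from 0; symbols give the replicate (numbered in accession order, not paired), and black bars give the mean ± SD of 3 libraries. The ranges of the vehicle and BPA libraries overlap in all 9 panels.

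Among the deep layer factors, Tbr1 (chr2:61802930-61814114) was at 546, 678 and 543 CPM in the vehicle libraries and at 667, 629 and 567 CPM in the BPA libraries. Vehicle replicate 2 was the highest of all 6 and the other vehicle libraries were the lowest, so the BPA libraries lay within the vehicle range. The group means were 589 CPM ± 76.8 (SD, n = 3) and 621 CPM ± 50.7 (SD, n = 3), a log2 fold change of 0.08 (95% interval -0.15 to 0.30, unadjusted P = 0.479, quasi-likelihood test).

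Fezf2 (chr14:12342094-12348189), which acts upstream of Bcl11b in the corticospinal program, was at 143, 201 and 166 CPM in vehicle and 187, 179 and 166 CPM in BPA. It had the largest spread of the 9 over the 6 libraries, with a standard deviation of 0.17 on the log2 scale, and that spread lay within the vehicle group (coefficient of variation 17.3%, against 6.01% in BPA). Its log2 fold change was 0.06 (95% interval -0.19 to 0.31), and -0.05 without vehicle replicate 1. The level of Fezf2 relative to Tbr1, per length, was 0.519 ± 0.0426 in vehicle and 0.515 ± 0.0114 in BPA (SD, n = 3 each).

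Bcl11b (chr12:107910403-108003602) had the most negative estimate of the 9. It was at 758, 724 and 625 CPM in vehicle and 696, 619 and 633 CPM in BPA, so that vehicle replicate 3 fell among the BPA libraries. The means were 702 CPM ± 69.3 and 649 CPM ± 41.1 (SD, n = 3 each), a log2 fold change of -0.11 (95% interval -0.32 to 0.10, unadjusted P = 0.270). Besides deep layer neurons, Bcl11b is expressed at high level in striatal projection neurons, whose marker levels are given below.

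Sox5 (chr6:143828425-144781977) was at 290, 282 and 249 CPM in vehicle and 342, 253 and 280 CPM in BPA. Only BPA replicate 1 lay above the vehicle range, and the log2 fold change was 0.09 (95% interval -0.15 to 0.33). Without BPA replicate 1 it was -0.04. Tle4 (chr19:14448150-14598051) had the estimate closest to 0, with 162, 145 and 143 CPM in vehicle, 147, 143 and 164 CPM in BPA, and a log2 fold change of 0.01 (95% interval -0.20 to 0.22).

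Among the upper layer factors, Cux1 (chr5:136248135-136567490) was the steadiest, at 294, 263 and 290 CPM in vehicle and 281, 292 and 298 CPM in BPA. Its log2 fold change was 0.04 (95% interval -0.15 to 0.23). Cux2 (chr5:121856366-122050102), which is made by upper layer neurons and by progenitors of the subventricular zone, was at 190, 197 and 189 CPM in vehicle. In BPA it was at 213, 160 and 223 CPM, with replicate 2 below and the other 2 libraries above all vehicle libraries. The coefficient of variation was 2.17% in vehicle and 16.9% in BPA, and this difference in spread was not tested. Its log2 fold change was 0.05 (95% interval -0.20 to 0.29, unadjusted P = 0.689). Without BPA replicate 3 it was -0.04 and without BPA replicate 1 it was -0.01.

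Pou3f2 (chr4:22482780-22488366) and Pou3f3 (chr1:42695768-42703176) act together in the migration and identity of upper layer neurons and are both made in progenitors. Pou3f2 was at 267, 218 and 221 CPM in vehicle and 214, 220 and 244 CPM in BPA. The high value was that of vehicle replicate 1, and without it the log2 fold change turned from -0.06 (95% interval -0.28 to 0.16) to 0.04. Pou3f3 was at 618, 647 and 564 CPM in vehicle and 600, 553 and 574 CPM in BPA, a log2 fold change of -0.08 (95% interval -0.28 to 0.11, unadjusted P = 0.381). Per length, Pou3f3 exceeded Pou3f2 by 1.97 ± 0.249 in vehicle and 1.93 ± 0.173 in BPA (ratio, SD, n = 3 each).

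The 95% intervals describe the precision of the fit of all 6 libraries. Taken over the 9 factors, the 95% intervals of the fold of BPA over vehicle reached no lower than 0.800 (Bcl11b) and no higher than 1.26 (Sox5). Differences inside these bounds could not be resolved with 3 fetuses per group. The intervals are for single genes and take the fetuses as independent, so larger differences are not excluded. Without vehicle replicate 2 and BPA replicate 2, the log2 fold change of Sox5 was 0.22 (SE 0.122). The median within-group standard deviation of the 9 was 0.14 on the log2 scale, beside 0.12 for the 1550 genes of like abundance.

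**Figure D3:**
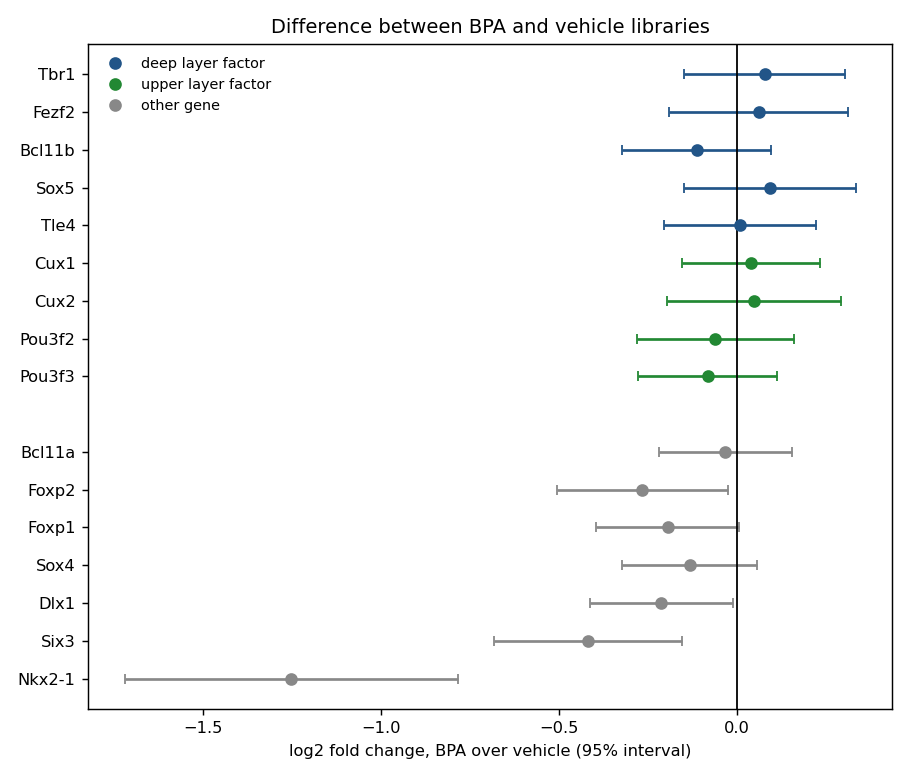
Log2 fold change of BPA over vehicle with its 95% interval from edgeR's quasi-likelihood fit, for the 5 deep layer factors (blue), the 4 upper layer factors (green) and 7 other genes (grey). The intervals of all 9 factors span 0 and stay between -0.32 and 0.33, as does that of Bcl11a around a value near 0, whereas those of Foxp2, Dlx1, Six3 and Nkx2-1 lie below 0. The intervals are not adjusted for the number of genes, and no gene shown passed an adjusted P of 0.1. Foxp1, Sox4, Six3 and Nkx2-1 were picked for their small P in these same data.

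The balance of deep against upper layer transcripts was described by the summed CPM per kb of the 5 deep layer factors over that of the 4 upper layer factors. This ratio was 1.75, 2.04 and 1.83 in the vehicle libraries and 2.06, 2.02 and 1.80 in the BPA libraries. The groups overlapped, with means of 1.87 ± 0.147 and 1.96 ± 0.144 (SD, n = 3 each). The upper sum was mostly Pou3f3 and Pou3f2, at 80.0 and 41.3 CPM per kb on average, beside 19.4 for Cux2 and 14.3 for Cux1. As given above, Pou3f2, Pou3f3 and Cux2 are also made in progenitors and Bcl11b in striatal projection neurons. The ratio is therefore not one of layer neurons alone. The ratio of Tbr1 to Bcl11b per length, 2 factors that repress each other's fates, was 1.25 ± 0.163 in vehicle and 1.42 ± 0.0890 in BPA, with the BPA value of replicate 3 (1.33) below that of vehicle replicate 2 (1.38).

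Other genes of projection neurons were examined beside the 9 factors. Of the 16 upper layer genes besides the 4 factors, 0 reached an unadjusted P of 0.05, and the median log2 fold change was 0.01. The smallest P values among them belonged to the secreted protein Dkk3 (log2 fold change 0.24, SE 0.181), the adhesion molecule Pvrl3 (0.14, SE 0.118) and the vesicle release factor Cadps2 (-0.26, SE 0.229). Of 22 tested deep layer and subplate genes, 2 reached an unadjusted P of 0.05 (2.2% of all genes), both lower in BPA. Of the 22, 1 did not overlap between the groups (6.75% of all genes). The adjusted threshold was passed by 0, and the median log2 fold change was -0.03. The subplate gene Cplx3 was at 0 counts in every library and was not tested, nor was Rbp4 with 5 to 8 counts.

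The 2 deep layer genes with a small P were Foxp2, a forkhead factor of corticothalamic neurons, and Pcp4, a calmodulin-binding protein. Foxp2 was at 88.2, 76.7 and 72.6 CPM in vehicle and 67.1, 62.2 and 68.9 CPM in BPA, with no overlap (log2 fold change -0.27, SE 0.113, unadjusted P = 0.0325, adjusted P = 1). Pcp4 rested on 2 to 28 counts per library (log2 fold change -1.10, SE 0.428, unadjusted P = 0.0205, adjusted P = 1), and its groups overlapped. Among the next, Zfpm2, a cofactor of GATA factors found in corticothalamic neurons, had a log2 fold change of 0.16 (SE 0.121).

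Of 36 other transcription regulators of projection neurons, 17 had a negative and 19 a positive estimate, with a median log2 fold change of 0.01. Only Foxp2 among them reached an unadjusted P of 0.05 (2.2% of all genes). Of the 36, 4 did not overlap between the groups (6.75% of all genes), all lower in BPA: Foxp2, Foxp1, Sox4 and Ski. Foxp1, which like Foxp2 is strongly expressed in striatal neurons as well as in cortex, was at 204, 210 and 204 CPM in vehicle and 166, 180 and 194 CPM in BPA, without overlap (log2 fold change -0.20, SE 0.0950, unadjusted P = 0.0569, adjusted P = 1). Sox4, a factor of newborn neurons, had a log2 fold change of -0.13 (SE 0.0891), also without overlap. Ski was at 302, 283 and 289 CPM in vehicle and 271, 279 and 277 CPM in BPA (log2 fold change -0.08, SE 0.0879).

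Paralogs of the factors were also measured. Bcl11a, the cortical partner of Bcl11b, was at 494, 525 and 491 CPM in vehicle and 502, 479 and 497 CPM in BPA, with a log2 fold change of -0.03 (95% interval -0.22 to 0.15). The other paralogs tested ranged from Fezf1, at 6.91 to 11.5 CPM, to Aes (Tle5), at 280 to 356 CPM. Of the 11 paralogs tested, 0 reached an unadjusted P of 0.05. The smallest P was that of Pou3f4 (0.105), which is found in the ventral telencephalon rather than the cortex, at 43.4, 34.3 and 33.1 CPM in vehicle and 32.0, 32.3 and 30.1 CPM in BPA (log2 fold change -0.23, SE 0.134).

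Markers of the ventral telencephalon had lower summed levels in the BPA libraries, although 0 of the 14 passed the adjusted threshold. In bulk tissue these levels do not show whether the transcripts came from ventral tissue or from cells within the cortex, which was not tested. The gene lists were chosen with earlier results of these data known, so the counts below are descriptions and not tests. All 14 had a negative estimate (49.5% of all genes tested), 7 reached an unadjusted P of 0.05 (2.2% of all genes), 11 had libraries that did not overlap between the groups (6.75% of all genes), and the median log2 fold change was -0.29. Their summed level ran from 1193 to 1353 CPM in vehicle and from 1028 to 1137 CPM in BPA, and none was at 0. The most abundant, the homeobox gene Dlx1, averaged 364 CPM in vehicle and 314 CPM in BPA. The smallest P was that of Nkx2-1, the selector of the medial ganglionic eminence (log2 fold change -1.25, SE 0.220, adjusted P = 0.251). Of 14 tested markers of striatal projection neurons 13 had a negative estimate, 4 reached an unadjusted P of 0.05 and 5 did not overlap, against the same shares of all genes, with 0 past the adjusted threshold and a median of -0.25. Foxp1 was counted in this list too, and was 1 of the 5 without overlap. Their summed level ran from 1044 to 1154 CPM in vehicle and from 943 to 980 CPM in BPA. The most abundant was Meis2 (542 and 487 CPM on average), and the smallest P was that of Six3 (log2 fold change -0.42, SE 0.124, unadjusted P = 0.00404). The part of the other markers in the estimates of Bcl11b, Foxp1, Foxp2 and Pou3f4 was not tested, and in bulk tissue fewer cells of a type and less RNA per cell cannot be told apart.

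**Figure D4:**
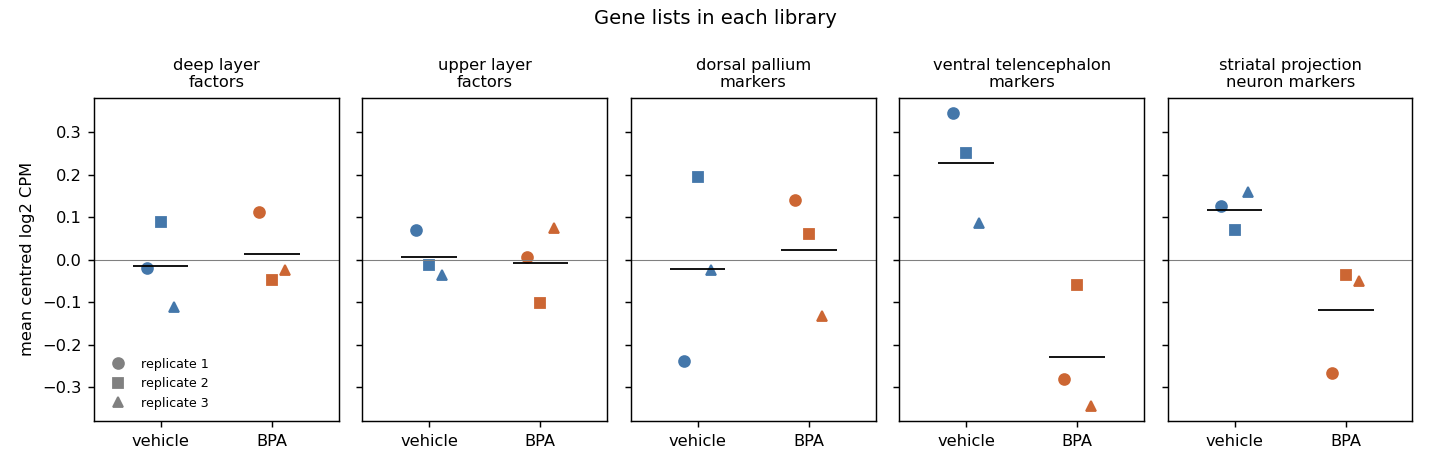
Mean of log2 CPM over the genes of each list, after subtraction of each gene's mean over the 6 libraries; points are libraries, symbols give the replicate and black lines the group means. Deep and upper layer factors and dorsal pallium markers overlap between the groups, while the ventral telencephalon and striatal markers are lower in all 3 BPA libraries than in all 3 vehicle libraries.

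The summed levels of dorsal pallium, neuronal and progenitor markers overlapped between the groups. Of 8 dorsal pallium markers, 7 had a positive estimate (50.5% of all genes tested) and 0 reached an unadjusted P of 0.05, and their summed level was 2233 to 2807 CPM in vehicle and 2453 to 2704 CPM in BPA. The lowest was vehicle replicate 1, which was also the highest in summed ventral markers. Other libraries did not show this opposition. Vehicle replicate 2, the highest in dorsal markers, was the second highest in ventral markers (1333 CPM). BPA replicate 3, the lowest in ventral markers (1028 CPM), was the second lowest in dorsal markers (2453 CPM). Of 12 neuronal markers 11 had a negative estimate (49.5% of all genes tested) and 0 passed an unadjusted P of 0.05, with a median log2 fold change of -0.08. The most abundant over the 6 libraries was the microtubule protein gene Dcx, at 2317 and 2322 CPM on average in vehicle and BPA, and the only one with a positive estimate (log2 fold change 0.0024). The tubulin gene Tubb3 was at about that level, with 2333 CPM in vehicle and 2116 CPM in BPA (log2 fold change -0.14, SE 0.0947). The smallest P was that of the neurofilament gene Nefm (log2 fold change -0.17, SE 0.116). Of the 12, 1 did not overlap between the groups (6.75% of all genes). It was Elavl3, at 966, 986 and 942 CPM in vehicle and 909, 857 and 925 CPM in BPA. Of 9 progenitor markers 6 had a negative estimate (49.5% of all genes tested) and 0 passed an unadjusted P of 0.05, with a median log2 fold change of -0.02. The intermediate filament gene Vim averaged 619 and 612 CPM, and the smallest P was that of Sox2, a factor of neural stem cells (log2 fold change -0.21, SE 0.106, unadjusted P = 0.0677).

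Markers of other tissues that a cortical dissection can carry along were summed in the same way. Diencephalon markers summed to 38.7 to 53.5 CPM in vehicle and 40.1 to 47.0 CPM in BPA, led by Lhx9 (25.0 and 27.5 CPM on average), with the smallest P for Tcf7l2 (log2 fold change -0.30, SE 0.190). Choroid plexus markers summed to 21.3 to 229 CPM in vehicle and 23.9 to 357 CPM in BPA, led by Ttr, with the smallest P for Clic6 (log2 fold change 0.86, SE 0.757). Microglia markers summed to 47.0 to 58.4 and 50.6 to 58.0 CPM, led by Csf1r (18.3 and 18.2 CPM), with the smallest P for C1qa (log2 fold change 0.13, SE 0.230). Vessel and meningeal markers summed to 160 to 225 and 157 to 215 CPM, with Pdgfrb the most abundant over the 6 libraries (36.8 and 34.4 CPM) and the smallest P for Kdr (37.4 and 33.6 CPM, log2 fold change -0.14, SE 0.149). Blood cell markers summed to 285 to 598 CPM in vehicle and 333 to 415 CPM in BPA, led by the globin gene Hbb-bs (228 and 198 CPM), and the globin gene Hba-a1 was the only one of these 5 lists to reach an unadjusted P of 0.05 (log2 fold change -0.43, SE 0.200, unadjusted P = 0.0452, adjusted P = 1).

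Across the 6 libraries, the genes whose pattern lay closest to that of Fezf2, the most variable of the 9 factors, were Sez6, Sugp1 and Noc2l. Their centred log2 CPM differed from that of Fezf2 by a root mean square of 0.013, 0.023 and 0.029, where the median over 10009 genes was 0.20. Sez6, a membrane protein of neurons, was at 779, 1091 and 882 CPM in vehicle and 1015, 968 and 904 CPM in BPA, in the same order of libraries as Fezf2 except where 2 libraries of Fezf2 were at 166 CPM. The likeness is a description over 6 libraries, with no test.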

How the data were processed

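Fetal cortex of 3 vehicle and 3 BPA male fetuses was profiled by RNA sequencing. According to the study's methods and the submitters' processing notes, the authors aligned single-end reads of 50 bases from strand-specific libraries to GRCm38 with TopHat 2.0.14 and summarised them with featureCounts on Gencode models. The deposited values were raw read counts per gene symbol. Strand and multi-mapping settings are not given in the sources used here, so overlapping and antisense genes were checked. Groups came from the treatment label, and replicates were numbered in accession order. The study's results section names a later age than its methods and the labels.

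Counts were analysed in R 4.3.3 with edgeR 4.0.16. Genes passing filterByExpr (minimum count 10, minimum total 15) were kept, which left 13741 genes and all 9 factors. Counts were scaled by TMM, fitted without covariates by the quasi-likelihood method and adjusted over all genes (Benjamini-Hochberg, threshold 0.1). Standard errors and 95% intervals follow from the quasi-likelihood statistic and are not adjusted for the number of genes. Log2 CPM used a prior count of 2. Exonic length, coordinates and 50-base words came from GENCODE M21. All 15 pairs of libraries differed beyond counting noise (chi-square divided by its degrees of freedom, 2.48 to 8.52). Scripts were tested on simulated data. The factors and gene lists were chosen with earlier results of these data known. Named genes were the 9 factors, Foxp2 and Bcl11a (another gene of this rule is not reported here), the genes with the smallest P in each list (3 in projection neuron lists, 1 in marker lists), the most abundant marker, overlapping genes and the 3 genes closest to the most variable factor. Ski was also named because its groups did not overlap. Alternatives were DESeq2 1.42.0, limma-voom (limma 3.58.1), the likelihood ratio test, other scalings and filters, and omission of libraries.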

Additional observations from a re-analysis of the deposited data

How the results depend on the processing

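No call was gained by any of the 9 factors under any of the 15 alternatives, and the smallest unadjusted P reached was 0.0816 (Cux2). The sign of the estimate was unchanged in 125 of 135 values, and under every other test, scaling and filter; the exceptions came from omitted libraries. When 1 library was left out, the log2 fold change ran from -0.052 to 0.20 for Fezf2, from -0.042 to 0.19 for Sox5, from -0.051 to 0.068 for Tle4, from -0.0085 to 0.069 for Cux1, from -0.041 to 0.18 for Cux2 and from -0.12 to 0.041 for Pou3f2, all crossing 0. Tbr1 (0.02 to 0.19), Bcl11b (-0.19 to -0.05) and Pou3f3 (-0.14 to -0.04) did not cross 0. Omitting vehicle replicate 2 and BPA replicate 2 together, the pair with choroid plexus transcripts, was chosen after seeing the data: Cux1 then turned to -0.0089, the median of the deep layer factors rose from 0.06 to 0.188, 15 genes of the whole table passed the adjusted threshold and 954 an unadjusted P of 0.05, none of the 9 among either. Over all genes, the counts of 0 and 302 became 3 and 126 with DESeq2. The likelihood ratio test called 4 genes. Without a filter the counts were 19 and 620 of 23501 genes, and a minimum of 10 CPM left 162 at an unadjusted P of 0.05. Leaving out 1 library gave 0 to 1 (1 without vehicle replicate 3 or BPA replicate 2) and 194 to 708: 708 without vehicle replicate 2, 563 without BPA replicate 2 and 194 without vehicle replicate 3 or BPA replicate 1. The cause was not tested. No paired analysis was made because the labels name no pairs or litters. The titles of vehicle replicate 2 and BPA replicate 2 carry consecutive sample numbers, and so do those of vehicle replicate 1 and BPA replicate 1. The meaning of these numbers is not given.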

Other observations

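Some genes of the cortical progenitor to neuron sequence varied between libraries in an order like that of Tbr1 and Fezf2, and were picked after their values were seen. Eomes, the T-box factor of intermediate progenitors, was at 177, 259 and 208 CPM in vehicle and 249, 235 and 194 CPM in BPA. Tle2, a Groucho corepressor, was at 42.8, 79.5 and 58.6 CPM in vehicle and 79.1, 63.2 and 56.6 CPM in BPA. In both, as in Tbr1 and Fezf2, vehicle replicate 2 was the highest library and BPA replicate 1 the second highest, and no difference between the groups was detected.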
